A study of Mus musculus with 6 samples.

Results

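The mitochondrial genome contributed 37 of the 49585 rows of the deposited gene table, taken as every row whose name begins with mt-. All 37 matched the annotation of the mitochondrial chromosome by name. They comprised 13 protein-coding genes, 2 rRNA genes and 22 tRNA genes. The 13 protein-coding genes were counted above 0 in all 6 libraries, and they also passed the filter on low values of the genotype test. The remaining 24 genes, all rRNA and tRNA genes, were listed at 0 in all 6 libraries.

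RNA was sequenced from monocytes of mouse bone marrow in 3 libraries labelled Sykdel/del and 3 libraries labelled Syk+/+. *Syk* encodes spleen tyrosine kinase, which relays signals of immune receptors, and the series asks what its loss changes in monocytes. The labels give high-fat diet for both genotypes, and the submitters' design text gives its length as 8 weeks. The diet was begun at an age of 8 weeks. Both genotypes carried *Rosa26CreER(T2)+/+*, a Cre that is expressed in all tissues and acts after tamoxifen, so deletion was not restricted to monocytes. The mice were C57BL/6J with floxed *Syk*, which was deleted in Sykdel/del by oral tamoxifen at 200 mg/kg for 3 days. Whether the Syk+/+ mice received tamoxifen is stated in none of the sources used here. The study describes as many mice per genotype as there are libraries, but no label ties each library to its own mouse, and if libraries shared mice, the p-values below would reflect technical spread.

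Mitochondrial DNA is a small circle that is transcribed from both strands into long precursors, which are cut apart largely at the tRNAs that lie between the other genes, and its genes have no introns. Its messenger RNAs encode core subunits of respiratory complexes I, III and IV and of the ATP synthase, complex V, whereas all other mitochondrial proteins come from nuclear genes. Most of its genes are read from the heavy strand promoter, and *mt-Nd6* is the protein-coding gene on the opposite strand. *mt-Atp8* and *mt-Atp6* share a messenger RNA, as do *mt-Nd4l* and *mt-Nd4*. Fragments of mitochondrial DNA have also been copied into the nuclear chromosomes, and such copies can be near-identical to the genes they came from.

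Depth ranged from 4168626 to 6254375 reads in genes in the Sykdel/del libraries and from 6805111 to 7071823 in the Syk+/+ libraries. The values are read counts scaled per library, and 1 read was worth 1.04 to 1.56 normalized counts in the Sykdel/del libraries and 0.923 to 0.960 in the Syk+/+ libraries. All 8 monocyte markers of the list used were above 0 in every library, with a sum of 54157 to 57539 normalized counts in Sykdel/del and 52034 to 56369 in Syk+/+. B cell markers summed to 47.6 to 96.8 normalized counts in Sykdel/del and 72.1 to 87.9 in Syk+/+, with *Ms4a1* at 0 in all 6 libraries. T and NK cell markers summed to 12.2 to 15.6 in Sykdel/del and 15.4 to 18.6 in Syk+/+, with *Ncr1* at 0 in all 6 libraries. Resident macrophage markers summed to 1595 to 1966 normalized counts in Sykdel/del and 2207 to 2329 in Syk+/+, and plasma cell markers to 516.5 to 690 in Sykdel/del and 267 to 435 in Syk+/+. *Syk* itself was at 4794, 5094 and 4712 normalized counts in the Sykdel/del libraries and at 4463, 5527 and 5427 in the Syk+/+ libraries, and since exons left after deletion can still be counted, the labels could not be checked by it.

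Sykdel/del replicate 1 stood apart from the other libraries of its genotype. Its distance to the other Sykdel/del libraries, the root mean square difference of log2 values over 9987 genes, was 0.363 and 0.402, whereas those 2 libraries were 0.272 apart and the Syk+/+ libraries 0.266 to 0.306. Its distance to the Syk+/+ libraries was 0.362 to 0.409, and that of Sykdel/del replicates 2 and 3 was 0.307 to 0.373. The shares, the fold changes of *mt-Nd6* and *mt-Atp8* and the medians of gene lists are given with and without it.

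Several mitochondrial genes have a nuclear copy that is identical or nearly so, and the copies are shown first because the level of each gene is described against them. The first 100 bases of *mt-Co2*, chrM:7013-7112 of GRCm38, with the start codon in capitals, also occur unchanged in the annotated nuclear pseudogene *Gm28661* (chr1:24614885-24615565, minus strand). The next pairs are stretches of *mt-Nd3* (chrM:9459-9538) and of its copy *Gm28438* (chr1:24613040-24613119, minus strand), and of *mt-Co1* (chrM:6381-6480) and its copy *Gm29216* (chr1:24616098-24616197, minus strand), with the bases that differ in capitals. There was 1 such base in the first pair and 6 in the second, and in both pairs they lie near the left end of the stretch.
mt-Co2: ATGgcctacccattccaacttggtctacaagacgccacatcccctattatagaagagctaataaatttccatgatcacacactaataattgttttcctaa
mt-Nd3: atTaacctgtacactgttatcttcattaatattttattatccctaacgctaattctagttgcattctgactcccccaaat
Gm28438: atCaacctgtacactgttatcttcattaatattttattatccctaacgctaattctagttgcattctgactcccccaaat
mt-Co1: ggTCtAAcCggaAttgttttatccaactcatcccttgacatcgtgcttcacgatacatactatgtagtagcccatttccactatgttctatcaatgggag
Gm29216: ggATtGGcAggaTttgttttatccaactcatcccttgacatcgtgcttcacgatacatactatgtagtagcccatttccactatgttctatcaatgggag

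The gene pair of complex V overlaps on the same strand, and its sequences are shown because a read from the shared stretch fits both genes. The last 73 bases of *mt-Atp8* (chrM:7897-7969) and the first 73 bases of *mt-Atp6* (chrM:7927-7999) have 43 bases in common, which are in capitals (chrM:7927-7969).
mt-Atp8: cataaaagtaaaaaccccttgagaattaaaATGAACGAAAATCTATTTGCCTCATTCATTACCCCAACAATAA
mt-Atp6: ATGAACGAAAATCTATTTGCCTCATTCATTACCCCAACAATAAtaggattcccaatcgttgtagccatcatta

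*mt-Nd6* and *mt-Cytb* are neighbours on opposite strands, and their first 80 bases show how the strands differ in base composition, with G in capitals. *mt-Nd6* (chrM:13991-14070, minus strand) had 13 G in this stretch and *mt-Cytb* (chrM:14145-14224, plus strand) had 4. Over the whole gene, G made up 28.1% of *mt-Nd6* and 5.88% to 16.1% of the other 12 protein-coding genes.
mt-Nd6: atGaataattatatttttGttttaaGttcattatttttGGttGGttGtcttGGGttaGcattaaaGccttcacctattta
mt-Cytb: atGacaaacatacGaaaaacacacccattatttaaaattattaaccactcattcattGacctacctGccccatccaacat

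The protein-coding genes fell into 8 abundant genes and 5 low ones. Levels of the 8 abundant genes spanned 562 to 20294 normalized counts over the 6 libraries (507 to 21702 reads), and levels of the 5 low genes 2.1 to 28.1 (2 to 25 reads). Divided by gene length, the 8 abundant genes lay between 1290 and 13136 normalized counts per kb and the 5 low genes between 6.03 and 78.8, a gap that held in every library. Together the 5 low genes gave 0.117% to 0.185% of mitochondrial counts in the Sykdel/del libraries and 0.116% to 0.142% in the Syk+/+ libraries.

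**Figure D1:**
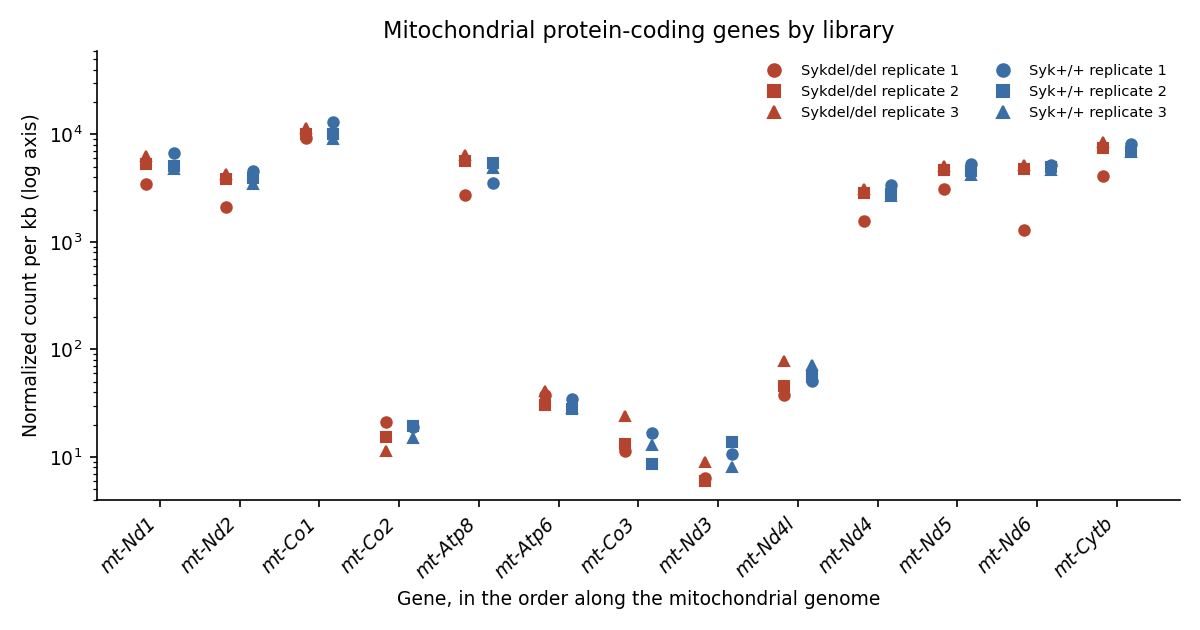
Normalized count per kb of gene length (log axis) of the 13 protein-coding genes of the mitochondrial genome, 1 point per library, with the genotypes marked separately and Sykdel/del on the left. *mt-Co1* had the highest level in every library, and *mt-Co2*, *mt-Atp6*, *mt-Co3*, *mt-Nd3* and *mt-Nd4l* lay below 100 in every library.

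Among the abundant genes *mt-Co1*, which encodes the catalytic core subunit of cytochrome c oxidase (complex IV), was the highest per kb in each of the 6 libraries. It lies at chrM:5328-6872. Its normalized counts were 14285, 15543 and 17591 in the Sykdel/del libraries, against 20294, 15490 and 14059 in the Syk+/+ libraries. The genotypes overlapped, with both the highest and the lowest library in Syk+/+ and Sykdel/del replicate 1 close to the lowest. By its mean count *mt-Co1* ranked 16 among all rows of the table, and it made up 31.6% to 42.5% of mitochondrial counts in Sykdel/del and 31.4% to 34.6% in Syk+/+.

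*mt-Cytb* (chrM:14145-15288), the cytochrome b of complex III, was second per kb in each of the 6 libraries. Its normalized counts were 4663, 8575 and 9682 in the Sykdel/del libraries, against 9296, 7889 and 7819 in the Syk+/+ libraries. Sykdel/del replicate 1 was the lowest library and Sykdel/del replicate 3 the highest, with the Syk+/+ libraries between them.

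The order of the next genes was less settled. *mt-Nd1*, *mt-Atp8*, *mt-Nd5* and *mt-Nd6* averaged 5256, 4779, 4491 and 4344 normalized counts per kb over the 6 libraries, and their ranks changed between libraries, from 3 to 7 for *mt-Atp8* and from 5 to 8 for *mt-Nd6*. *mt-Nd2* and *mt-Nd4* averaged 3693 and 2737 per kb, at rank 6 or 7 and rank 7 or 8. Among the low genes *mt-Nd4l* averaged 56.5 per kb, *mt-Atp6* 33.4, *mt-Co2* 16.9, *mt-Co3* 14.5 and *mt-Nd3* 8.96, and neighbours in this order overlapped in their ranges over the libraries, except that *mt-Atp6* lay above *mt-Co2* in every library.

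Complex I, NADH dehydrogenase, takes 7 of its core subunits from the mitochondrial genome. *mt-Nd5* (chrM:11742-13565), a subunit of its proton-pumping membrane arm, had 5723, 8458 and 9223 normalized counts in the Sykdel/del libraries, against 9660, 8398 and 7691 in the Syk+/+ libraries. *mt-Nd1* (chrM:2751-3707), the membrane subunit next to the quinone site, had 3304, 5092 and 5987 in Sykdel/del, against 6469, 4813 and 4516 in Syk+/+. Both genes were lowest in Sykdel/del replicate 1 and highest in Syk+/+ replicate 1, and the other 4 libraries lay between them.

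The membrane arm subunits *mt-Nd2* (chrM:3914-4951) and *mt-Nd4* (chrM:10167-11544) had nearly the same counts in each library. *mt-Nd2* was at 2177, 3994 and 4403 normalized counts in the Sykdel/del libraries, against 4764, 4038 and 3626 in the Syk+/+ libraries. *mt-Nd4* was at 2165, 3929 and 4303 in Sykdel/del, against 4697, 3872 and 3665 in Syk+/+. Again Sykdel/del replicate 1 was the lowest library and Syk+/+ replicate 1 the highest.

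*mt-Nd6* (chrM:13552-14070, minus strand), the complex I subunit read from the opposite strand, had the largest log2 difference between libraries of 1 genotype among the abundant genes. It was at 669.5, 2458 and 2712 normalized counts in the Sykdel/del libraries, against 2676, 2610 and 2401 in the Syk+/+ libraries. Replicate 1 alone was low, and Sykdel/del replicates 2 and 3 lay within or just above the range of the Syk+/+ libraries. *mt-Nd6* and *mt-Nd5* overlap by 14 bases on opposite strands, so reads from that stretch can be assigned only where the counting uses strand.

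The ATP synthase genes of 1 messenger RNA differed widely in level. *mt-Atp8* (chrM:7766-7969), a short subunit of the membrane part, was at 562.0, 1143 and 1317 normalized counts in the Sykdel/del libraries, against 727, 1108 and 992 in the Syk+/+ libraries. *mt-Atp6* (chrM:7927-8607), the subunit that forms the proton channel with the ring, was at 25.5, 20.9 and 28.1 in Sykdel/del, against 23.4, 19.2 and 19.4 in Syk+/+. The ratio of *mt-Atp8* to *mt-Atp6* normalized counts was 22.0, 54.7 and 46.9 in Sykdel/del and 31.1, 57.7 and 51.1 in Syk+/+, although *mt-Atp8* is the shorter gene.

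The remaining low genes rested on few reads. *mt-Co2* (chrM:7013-7696), the subunit of complex IV that takes electrons from cytochrome c, was at 14.4, 10.4 and 7.8 normalized counts in Sykdel/del, against 13.1, 13.4 and 10.2 in Syk+/+. *mt-Co3* (chrM:8607-9390), the other mitochondrial core subunit of that complex, was at 8.9, 10.4 and 18.7 in Sykdel/del, against 13.1, 6.7 and 10.2 in Syk+/+. These are 5 to 14 reads per gene and library, set against 11272 to 21702 reads of *mt-Co1*, which encodes a partner in the same complex. *mt-Nd4l* (chrM:9877-10173) was at 11.1, 13.6 and 23.4 in Sykdel/del, against 15.0, 16.3 and 21.2 in Syk+/+, and *mt-Nd3* (chrM:9459-9806) at 2.2, 2.1 and 3.1 in Sykdel/del, against 3.7, 4.8 and 2.8 in Syk+/+. Both encode small membrane subunits of complex I, and *mt-Nd3* had 2 to 5 reads per library.

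The 5 low genes were the ones whose sequence occurs almost whole in a nuclear copy. Each gene was divided into all windows of 50 bases, and each window was looked up in the annotated transcripts of all other genes. Such a transcript held 100% of the windows of *mt-Co2*, 99.9% of *mt-Co3*, 99.5% of *mt-Atp6*, 98.8% of *mt-Nd4l* and 98.0% of *mt-Nd3*. The number of windows with no match elsewhere was 0, 1, 3, 3 and 6 in these genes. Of the 635 windows of *mt-Co2*, 632 were in *Gm28661* and the rest in *Gm13341*. Of the abundant genes *mt-Nd4* shared 62.2% of its windows, *mt-Co1* 51.1%, *mt-Nd2* 8.19% and *mt-Nd5* 7.61%, and *mt-Nd1*, *mt-Atp8*, *mt-Nd6* and *mt-Cytb* shared 0. The matches of *mt-Co1* came from *Gm29216*, *Gm13340* and *Gm11512* together.

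**Figure D2:**
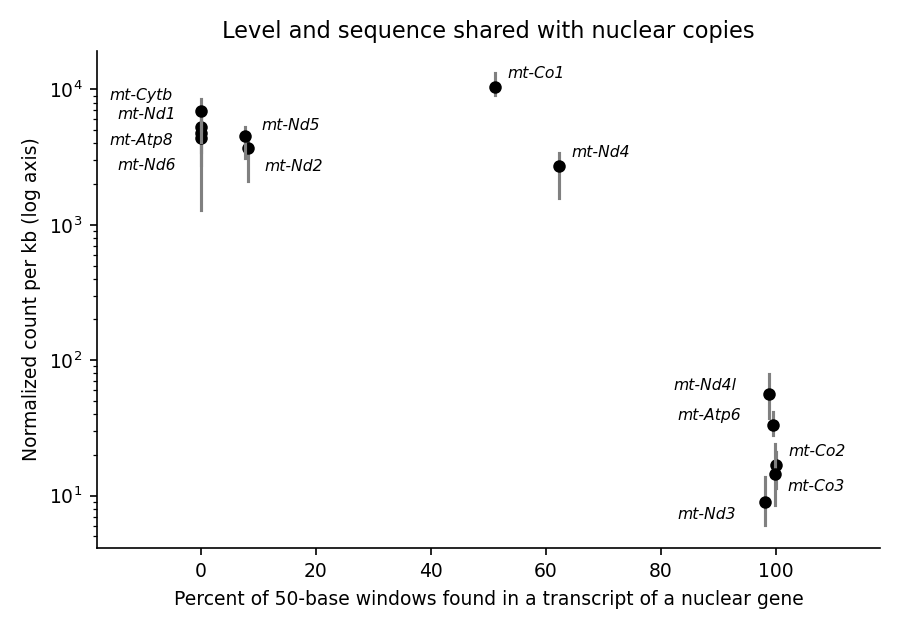
Mean normalized count per kb over the 6 libraries (log axis) against the percent of 50-base windows of the gene found in a transcript of a nuclear gene, 1 point per protein-coding gene, with lines from the lowest to the highest library. The 5 genes at 98.0% or more lie at 8.96 to 56.5, and the 8 genes at 62.2% or less lie at 2737 or more.

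Of the copies, 7 form a block on chromosome 1 in which the order of the mitochondrial genes is kept. On the minus strand of chr1 lie *Gm28439* (24611535-24612410), a copy of part of *mt-Nd4*, then *Gm10222* for *mt-Nd4l*, *Gm28438* for *mt-Nd3*, *Gm28437* for *mt-Co3*, *Gm10925* for *mt-Atp6*, *Gm28661* for *mt-Co2* and *Gm29216* (24615706-24616197) for part of *mt-Co1*. Over the aligned bases *Gm28439*, *Gm10222*, *Gm28437*, *Gm10925* and *Gm28661* had 0 differences from the mitochondrial gene, *Gm28438* had 1 in 345 and *Gm29216* had 6 in 492. All 7 copies of this block were listed at 0 in all 6 libraries. Other copies lie elsewhere, among them *Gm13339* of *mt-Nd2* and *Gm13340* of *mt-Co1* on chromosome 2, and *Gm4076* of *mt-Nd5* on chromosome 13. *Gm4076* was at 1.1, 2.1 and 0 normalized counts in Sykdel/del, against 0, 0 and 0.9 in Syk+/+. *Gm20594*, which shares windows with *mt-Rnr2*, was at 0, 3.1 and 3.1 in Sykdel/del, against 0, 1.9 and 0 in Syk+/+. All other copies with a row were at 0. No gene is annotated between *Gm10925* and *Gm28661*, where the counterpart of *mt-Atp8* would lie, and the genome sequence there was not searched, so the 0 for *mt-Atp8* covers annotated transcripts only. How reads that match several places were counted is stated in none of the sources used here, and the part of these copies in the levels was not tested. The order of levels above is therefore an order of counted reads, uncertain for the genes with shared sequence.

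The 2 rRNA genes, *mt-Rnr1* (chrM:70-1024) and *mt-Rnr2* (chrM:1094-2675), and the 22 tRNA genes, 59 to 75 bases long, were listed at 0 in every library. The nuclear RNAs *Rn7sk*, *Rmrp* and *Rpph1*, which every cell makes, were also listed at 0 in all 6 libraries, so a 0 in such classes may be a row that was not counted, and no limit on their level is given. The libraries were made after removal of rRNA, and the part of this step or of gene length in these values was not tested. Of the windows of *mt-Rnr2* 1.04% were shared with another transcript, and of *mt-Rnr1* 0. No comparison between genotypes was possible for these genes.

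The share of all counts that came from the mitochondrial genome did not separate the genotypes. It was 0.516%, 0.755% and 0.850% in the Sykdel/del libraries, against 0.904%, 0.739% and 0.687% in the Syk+/+ libraries. Exact 95% binomial intervals were narrow against this spread, at 0.511% to 0.522% for the lowest library and 0.897% to 0.911% for the highest, and they cover counting error only. The mean share was 0.707% ± 0.172 in Sykdel/del and 0.777% ± 0.114 in Syk+/+ (SD, n = 3 each), a difference of -0.0697 percentage points (exact two-sided permutation test, p = 0.7, and 0.7 after adjustment over 3 tests). The share of all mitochondrial rows and that of the protein-coding genes counted as separate tests in this adjustment. Their values were identical, because the rRNA and tRNA rows were at 0. With 3 against 3 libraries this exact test cannot go below p = 0.10. Without Sykdel/del replicate 1 the mean share of that genotype was 0.802% and the difference 0.0256 percentage points (exact permutation test, p = 0.8). In bulk RNA, fewer cells of a type and less RNA per cell cannot be told apart. Nearly all of the share came from the 8 abundant genes, since the 5 low genes gave 0.116% to 0.185% of mitochondrial counts. The share covers counted reads only, as do the percents of single genes within the mitochondrial genome. How much mitochondrial RNA went uncounted was not tested.

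**Figure D3:**
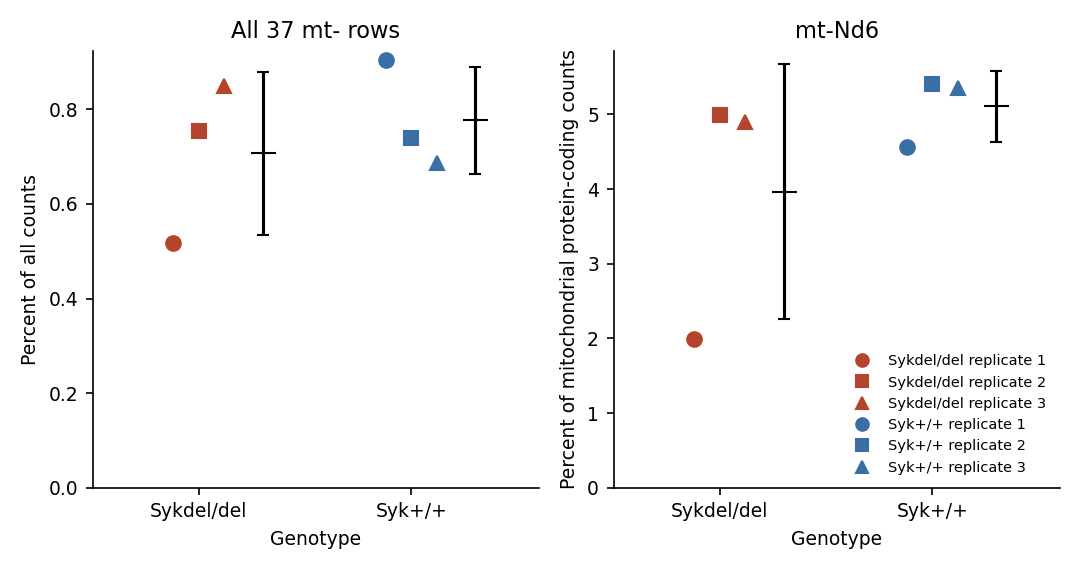
Share of all counts from the mitochondrial genome (percent) and share of *mt-Nd6* in mitochondrial protein-coding counts (percent), 1 point per library, with the group mean and a bar of 1 SD to each side, Sykdel/del on the left of Syk+/+. Sykdel/del replicate 1 is the lowest library in both panels, at 0.516% and 1.99%.

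Gene by gene, 0 of the 13 protein-coding genes differed between the genotypes at an adjusted p below 0.05, where 0.371% of all genes tested did (52 of 14023, limma with Benjamini-Hochberg adjustment). By unadjusted p below 0.05 the count was also 0 of 13, against 5.26% of all genes tested. With limma-voom on the recovered reads it was 0 of 13 at either threshold, against 0.242% of all genes by adjusted and 5.36% by unadjusted p. The libraries of the genotypes overlapped in all 13 genes, whereas in 10.1% of all genes tested they did not overlap. Of the 13 fold changes 10 were below 0 and 3 above, with a median log2 fold change of -0.17, against 0.001 over all genes tested. Without Sykdel/del replicate 1, 2 were below 0 and 11 above, with a median of 0.04.

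The intervals show what sizes of difference these data leave possible. For *mt-Co1* the log2 fold change was -0.06 (95% interval -0.38 to 0.26), for *mt-Nd5* -0.16 (-0.51 to 0.18), for *mt-Nd1* -0.16 (-0.57 to 0.25) and for *mt-Cytb* -0.19 (-0.64 to 0.26). *mt-Nd2* and *mt-Nd4* were both at -0.29 (standard error 0.20), and *mt-Atp8* at 0.03 (0.25). The low genes had log2 fold changes of 0.25 for *mt-Atp6* (standard error 0.27), -0.17 for *mt-Nd4l* (0.34), -0.19 for *mt-Co2* (0.36), 0.29 for *mt-Co3* (0.40) and -0.45 for *mt-Nd3* (0.48).

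**Figure D4:**
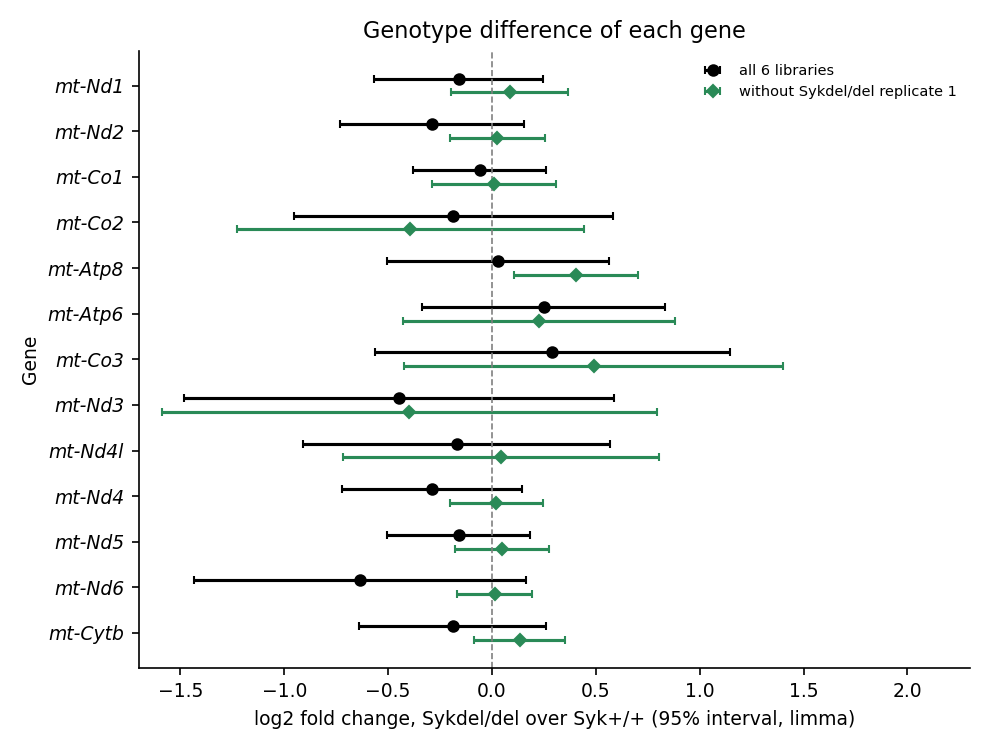
Log2 fold change of the 13 protein-coding genes, Sykdel/del over Syk+/+, from limma over all 6 libraries and without Sykdel/del replicate 1, with 95% intervals. All intervals over 6 libraries include 0, as do those without replicate 1 except that of *mt-Atp8*, and *mt-Nd6* lies at -0.64 with all libraries and at 0.01 without replicate 1.

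The fold change of *mt-Nd6* was the farthest from 0 of the 13, at -0.64 (standard error 0.37, 95% interval -1.44 to 0.16, adjusted p = 1 in limma). Without Sykdel/del replicate 1 it was 0.01 (standard error 0.08, -0.17 to 0.19). *mt-Atp8* was at 0.03 with all libraries and at 0.40 without that library (standard error 0.14, 95% interval 0.11 to 0.70, adjusted p = 0.37 in limma), with Syk+/+ replicate 1 then its lowest value.

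The same library set the share of *mt-Nd6* within the mitochondrial genome, a measure that does not depend on library scaling. *mt-Nd6* made up 1.99%, 4.99% and 4.90% of mitochondrial protein-coding counts in the Sykdel/del libraries, against 4.56%, 5.41% and 5.36% in the Syk+/+ libraries. Group means were 3.96% ± 1.71 in Sykdel/del and 5.11% ± 0.473 in Syk+/+ (SD, n = 3 each), a difference of -1.15 percentage points (exact two-sided permutation test, p = 0.3, and 0.7 after adjustment over 3 tests). The other tests of this adjustment were the share of the mitochondrial genome and that of its protein-coding genes, which had identical values. Without replicate 1 the difference in the share of *mt-Nd6* was -0.160 percentage points (exact permutation test, p = 0.6). The ratio of *mt-Nd6* to its neighbour on the opposite strand, *mt-Nd5*, was 0.117, 0.291 and 0.294 in Sykdel/del and 0.277, 0.311 and 0.312 in Syk+/+ (exact permutation test, p = 0.3).

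Within the mitochondrial genome, genes of Sykdel/del replicate 1 were not lowered evenly. Against the mean log2 value of Sykdel/del replicates 2 and 3, *mt-Nd6* differed by -1.95, *mt-Atp8* by -1.13, *mt-Cytb* by -0.97, *mt-Nd2* by -0.95, *mt-Nd4* by -0.93, *mt-Nd1* by -0.74 and *mt-Nd5* by -0.63, whereas *mt-Co1* differed by -0.21. The ratio of *mt-Co1* to *mt-Cytb* normalized counts was 3.06, 1.81 and 1.82 in Sykdel/del and 2.18, 1.96 and 1.80 in Syk+/+ (exact permutation test, p = 0.8). Sykdel/del replicate 1 was the lowest of all 6 libraries for 8 of the 13 genes. How many of all genes were lowest in this library was not counted. Of 7443 genes that averaged at least 100 normalized counts, 8 (0.107%), *mt-Nd6* included, lay as far down in this library, and the median log2 difference of these genes was 0.0011.

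**Figure D5:**
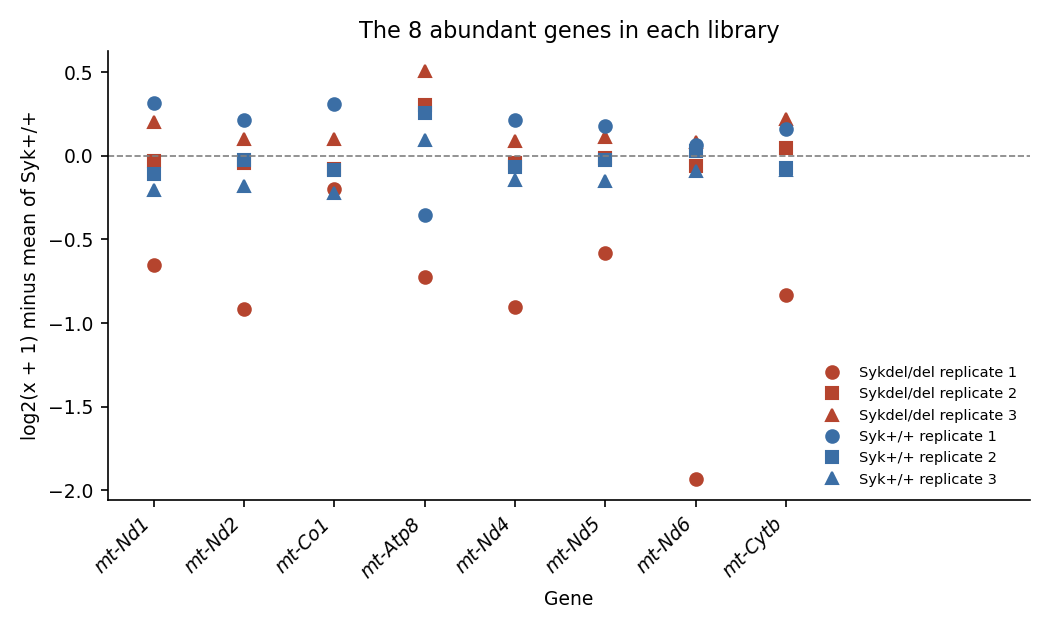
Log2 value of the 8 abundant mitochondrial genes in each of the 6 libraries, minus the mean log2 value of the gene in the Syk+/+ libraries (dashed line at 0), with Sykdel/del in red and Syk+/+ in blue. Sykdel/del replicate 1 is the lowest library for 7 of the 8 genes, all but *mt-Co1*, and lies farthest below the others at *mt-Nd6*.

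Other measures moved with this library. Nuclear genes averaging at least 100 normalized counts differed in it by the length of their longest transcript, with a median log2 difference of -0.42 in 234 genes under 1 kb, -0.23 in 912 genes of 1 to 2 kb, -0.05 in 2962 genes of 2 to 4 kb and 0.13 in 3189 genes over 4 kb. Abundant RNAs made in the nucleus summed to 140408, 104786 and 95548 normalized counts in the Sykdel/del libraries, against 112150, 109499 and 105548 in the Syk+/+ libraries. *Gm26917* alone gave 119767 of these counts in replicate 1, against 79877 and 74703 in Sykdel/del replicates 2 and 3. The sum thus mostly follows this row, and what RNA its reads come from was not tested. *Malat1* was at 9343, 9304 and 8190 in Sykdel/del, against 7670, 12266 and 9981 in Syk+/+. *Neat1* was at 11297, 15605 and 12655 in Sykdel/del, against 8492, 14441 and 12299 in Syk+/+. Replicate 1 was thus neither the highest nor the lowest library for *Malat1* and *Neat1*. *Rn7sk*, *Rmrp*, *Rpph1* and *Gm42418* of that list were at 0 in all 6 libraries. Neutrophil markers, 9 of 11 above 0 in every library, summed to 3812, 2381 and 2166 normalized counts in Sykdel/del, against 3079, 1955 and 2080 in Syk+/+, highest in replicate 1. Erythroid markers, 8 of 8 above 0 and lowest in replicate 1, summed to 256, 441 and 568 in Sykdel/del, against 909, 329 and 902 in Syk+/+. The part of transcript length, of the RNA counted as *Gm26917* or of other cell types in the mitochondrial values of this library was not tested.

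Nuclear genes of mitochondrial RNA, DNA replication, translation, the respiratory complexes and biogenesis were counted in 8 lists. Of any list 0 genes passed the limma test, with or without Sykdel/del replicate 1, or limma-voom on reads. Over all genes tested, limma called 52 of 14023 (0.371%) with all libraries and 92 of 13645 without that library. Limma-voom called 34 of 14023 (0.242%). At an unadjusted p below 0.05 in limma with all libraries lay 1 gene for tRNA charging, 1 ribosomal protein gene and 2 nuclear subunit genes, and 0 genes of the other 5 lists. These were 4 of 246 genes (1.63%), against 5.26% of all genes tested. In the transcription list all 9 genes were tested, 4 below 0 and 5 above. Their log2 fold changes had a median of 0.04 with all libraries and 0.05 without Sykdel/del replicate 1. *Polrmt*, the mitochondrial RNA polymerase, was at 216, 198 and 203 normalized counts in Sykdel/del, against 235, 228 and 203 in Syk+/+, a log2 fold change of -0.11 (standard error 0.11). *Mterf3*, of the mitochondrial termination factor family, was at 0.16 (0.13) and the elongation factor *Tefm* at 0.27 (0.31). Of the genes for RNA processing, modification and turnover 32 of 33 were tested, 16 on each side of 0, with a median of 0.001, and of 0.01 without Sykdel/del replicate 1. Smallest in p were *1110008L16Rik*, the nuclease subunit of mitochondrial RNase P, named *Prorp* in RefSeq, at 0.46 (standard error 0.25), *Ptcd2* at 0.18 (0.10) and *Tbrg4*, a member of the FASTK family of RNA-binding proteins, at -0.19 (0.11).

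The replication and nucleoid list, 15 genes, had a median log2 fold change of 0.02, with 5 genes below 0 and 10 above, and a median of 0.06 without Sykdel/del replicate 1. The topoisomerase *Top1mt* was at 0.35 (standard error 0.30), the polymerase accessory subunit *Polg2* at 0.15 (0.13) and the ribonuclease *Rnaseh1* at 0.19 (0.19). Among 22 genes for tRNA charging, with a median of -0.02, and of -0.05 without Sykdel/del replicate 1, *Lars2*, the mitochondrial leucyl-tRNA synthetase, was the gene with the lowest p. It was at 157, 549 and 282.5 normalized counts in Sykdel/del, against 655, 1024 and 274 in Syk+/+. Its log2 fold change was -0.97 (standard error 0.43, limma adjusted p = 0.91). The libraries of each genotype spread widely and overlapped. *Pars2* and *Tars2*, the synthetases for proline and threonine, were at 0.37 (0.27) and 0.16 (0.12).

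All 78 mitochondrial ribosomal protein genes were tested, 34 below 0 and 44 above. Their log2 fold changes had a median of 0.01 with all libraries and 0.09 without Sykdel/del replicate 1. *Mrpl27*, a protein of the large subunit, was at 83.1, 86.6 and 96.8 normalized counts in Sykdel/del, against 69.2, 58.6 and 62.7 in Syk+/+. The genotypes did not overlap in this gene, as in 10.1% of all genes tested. The log2 fold change of *Mrpl27* was 0.48 (standard error 0.17, limma adjusted p = 0.63). *Mrpl3* was at 0.27 (0.15) and the small-subunit protein *Mrps22* at -0.29 (0.18). Sykdel/del replicate 1 was the lowest of 6 libraries for 35 of the 78, and their median log2 difference from replicates 2 and 3 was -0.22. In the same comparison the nuclear genes described above had a median of -0.42 under 1 kb and -0.23 at 1 to 2 kb. The part of transcript length in this list was not tested.

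The nuclear subunits of complexes I, III, IV and V, the partners of the mitochondrial products, had a median log2 fold change of 0.02 over 77 tested genes of 81, with 34 below 0 and 43 above, and a median of 0.12 without Sykdel/del replicate 1. *Ndufv1*, which carries the NADH site of complex I, was at 480.0, 448 and 474 normalized counts in Sykdel/del, against 400.2, 375 and 411 in Syk+/+. The genotypes did not overlap in this gene, as in 10.1% of all genes tested. The log2 fold change of *Ndufv1* was 0.24 (standard error 0.09, limma adjusted p = 0.76). *Ndufb2* was at 0.33 (0.14, adjusted p = 0.91 in limma) and *Ndufs7* at -0.26 (0.13), both also of complex I. Sykdel/del replicate 1 was the lowest of 6 libraries for 46 of the 77, with a median log2 difference from replicates 2 and 3 of -0.36. The medians of -0.42 and -0.23 for nuclear genes under 1 kb and of 1 to 2 kb come from the same comparison. How many of all genes were lowest in this library was not counted, and the part of transcript length in this list was not tested.

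Complex II is encoded wholly in the nucleus, and its 4 genes had a median log2 fold change of 0.10, and of 0.19 without Sykdel/del replicate 1, with *Sdhd* at 0.18 (standard error 0.10), *Sdhc* at 0.13 (0.13) and the flavoprotein *Sdha* at -0.07 (0.09). Of the regulators of mitochondrial biogenesis 9 of 10 were tested, with 8 below 0 and 1 above and a median of -0.07, and of -0.04 without Sykdel/del replicate 1. *Myc*, a transcription factor of growth, was at -0.29 (standard error 0.16), the nuclear receptor *Esrra* at -0.16 (0.15) and *Gabpa*, a subunit of an activator of respiratory chain genes, at -0.08 (0.10).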

How the data were processed

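RNA of bone marrow monocytes isolated with a kit was depleted of rRNA, made into directional libraries and sequenced as paired ends. The authors aligned to mm10 (GRCm38) and counted per gene in CLC Genomics Workbench, for which the sources used here give neither version, annotation, strand setting nor handling of reads with several matches. The deposited values are log2(x + 1). TPM is named in the methods. However, dividing by 1 step per library turned 100% of the values checked into whole reads (tolerance 0.06 read). That makes x a count that was scaled by library and not by gene length. The largest values, *mt-Co1* in every library among them, were outside this check. The deposited p-value of each gene holds the authors' comparison of the genotypes and was not used.

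Genotypes came from the labels. limma 3.58.1 (R 4.3.3, eBayes with trend, Benjamini-Hochberg adjustment, threshold 0.05) was fitted to the log2 values, pseudocount 1, of 14023 genes with at least 1 normalized count in at least 3 libraries. Shares of counts were compared by exact permutation tests. Gene coordinates, transcripts and sequences came from GENCODE M21 on GRCm38, and levels per kb used annotated gene length. Named were all mt- genes and up to 3 genes of lowest p per nuclear list. Members and lists were chosen with earlier results of these data known. Alternatives were 4 scalings, 2 pseudocounts, 2 filters, limma without trend, a replicate block, limma-voom on reads, thinned reads, 2 denominators and leaving out each library. The gene lists without Sykdel/del replicate 1 were added after seeing the data. Libraries of the same number did not deviate together (r = 0.0436, 0.0416 and -0.0191), so the main test was not paired.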

Additional observations from a re-analysis of the deposited data

How the results depend on the processing

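The count of mitochondrial genes called was 0 under each of the 18 alternatives, and the lowest adjusted p of any of the 13 genes was 0.37 in limma (*mt-Atp8* without Sykdel/del replicate 1). The filter on a mean of at least 5 left 12 of them, without *mt-Nd3*. By unadjusted p below 0.05 in limma, *mt-Nd2*, *mt-Nd4* and *mt-Nd6* passed without Sykdel/del replicate 3, against 783 of 13688 genes tested. So did *mt-Nd6* without Sykdel/del replicate 2 (636 of 13595) and *mt-Atp8* without Sykdel/del replicate 1 (1164 of 13645). Over all genes, 52 were called in the main fit, 6 by limma without the trend, 34 by limma-voom, 0 with reads thinned to 1 depth (712 at an unadjusted p below 0.05) and 4 to 92 when 1 library was left out. With the replicate block 53 genes were called, 0 of them mitochondrial (46 lower and 7 higher in Sykdel/del, against 49 and 3 in the main fit). The replicate block left the mitochondrial share difference at -0.0697 percentage points by construction and called none of the 13 genes. Outside the leave-one-library-out fits, 154 values of single genes kept their direction and 1 did not, *mt-Atp8* at -0.015 on thinned reads.

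When each library was left out in turn, the difference in the share of counts from the mitochondrial genome, and likewise of its protein-coding genes, ranged from -0.141 to 0.0256 percentage points. Log2 fold changes ranged from -0.34 to 0.086 for *mt-Nd1*, -0.48 to 0.027 for *mt-Nd2*, -0.17 to 0.094 for *mt-Co1*, -0.39 to 0.011 for *mt-Co2*, -0.21 to 0.40 for *mt-Atp8*, 0.16 to 0.36 for *mt-Atp6*, -0.0068 to 0.49 for *mt-Co3*, -0.60 to -0.30 for *mt-Nd3*, -0.46 to 0.043 for *mt-Nd4l*, -0.48 to 0.020 for *mt-Nd4*, -0.30 to 0.048 for *mt-Nd5*, -0.996 to 0.013 for *mt-Nd6* and -0.39 to 0.13 for *mt-Cytb*. Of these values 14 changed sign, 8 of them without Sykdel/del replicate 1. The cause was not tested. The values of *mt-Nd3*, *mt-Co2*, *mt-Co3*, *mt-Nd4l* and *mt-Atp6* rest on 2 to 25 reads per library, and why these counts are low was not tested.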
